A study of Mus musculus with 4 samples.

Results

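Lysosomal proteases of sorted B220+CD43+ bone marrow cells were followed through 9 genes, the cathepsins Ctsa, Ctsb, Ctsc, Ctsd, Ctsh, Ctsl, Ctss and Ctsz and the asparaginyl endopeptidase legumain, Lgmn. They were taken by gene symbol from the deposited expression tables, in which each of the 9 has 1 row among 23312 genes. The rule takes them by function and uses no measured value. The labels call these cells pro-B cells, but markers of plasmacytoid dendritic cells were more abundant in them, and they are named by their sort here. RNA was sequenced from tamoxifen-treated C57BL/6 mice. The genotypes were Cnot3 fl/fl RERTCre, in which Cnot3 is flanked by loxP sites, and Cnot3 +/+ RERTCre, which has wild-type Cnot3 alleles. Both genotypes carried RERTCre, a tamoxifen-inducible Cre recombinase, and both received 1 mg tamoxifen on days 1, 2, 4 and 7 before analysis on day 10. There were 2 libraries per genotype, each from an individual mouse. The labels give neither the age of the mice nor the cells in which the Cre is active. Cnot3 is a subunit of the CCR4-NOT complex, which shortens the poly(A) tails of mRNAs.

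Cathepsins are made as inactive proenzymes, sorted to endosomes and lysosomes and activated there, where they degrade proteins taken up or delivered by the cell. In B cells and dendritic cells they also cut antigens and the invariant chain that blocks the peptide groove of MHC class II. Ctsb, Ctsc, Ctsh, Ctsl, Ctss and Ctsz are cysteine proteases of the papain family, Ctsd is an aspartic protease, Ctsa is a serine carboxypeptidase, and legumain is a cysteine protease of another family that cuts after asparagine. Cystatins and stefins are the natural inhibitors of the cysteine cathepsins.

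Promoter windows of the members were read from RefSeq on build GRCm38.p6, which is not the mm9 build of the expression tables. Each window runs from 250 bases before a gene's start to 50 bases after it, and 7 of the 9 members had one, Ctsb and Ctsh being the members without. The 4 windows shown belong to the member that passed the test between the genotypes (Ctsc), to the members with the palindrome TCACGTGA (Ctsa and Ctsd) and to the member with the highest mean level in Cnot3 fl/fl cells (Ctss). Capitals mark CACGTG, the core of the element bound by TFEB and related factors at many lysosomal genes, or a pair of GAAA separated by 2 bases, a core of interferon-responsive elements. The windows lie at chr7:88277835-88278134 on the plus strand for Ctsc, chr2:164833523-164833822 on the plus strand for the second of the Ctsa windows, chr7:142387778-142388077 on the minus strand for Ctsd, and chr3:95526536-95526835 on the plus strand for Ctss.
Ctsc: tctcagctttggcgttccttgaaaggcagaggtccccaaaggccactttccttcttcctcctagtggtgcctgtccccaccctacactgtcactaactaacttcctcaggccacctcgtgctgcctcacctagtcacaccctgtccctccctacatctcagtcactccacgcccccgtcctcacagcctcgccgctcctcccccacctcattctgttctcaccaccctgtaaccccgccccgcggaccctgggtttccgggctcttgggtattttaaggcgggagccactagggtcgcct
Ctsa: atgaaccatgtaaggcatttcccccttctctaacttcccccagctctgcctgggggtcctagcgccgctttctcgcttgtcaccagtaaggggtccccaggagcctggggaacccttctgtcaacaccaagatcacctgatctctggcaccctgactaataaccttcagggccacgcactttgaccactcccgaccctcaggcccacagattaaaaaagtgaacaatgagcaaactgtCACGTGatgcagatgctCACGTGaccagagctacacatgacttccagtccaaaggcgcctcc
Ctsd: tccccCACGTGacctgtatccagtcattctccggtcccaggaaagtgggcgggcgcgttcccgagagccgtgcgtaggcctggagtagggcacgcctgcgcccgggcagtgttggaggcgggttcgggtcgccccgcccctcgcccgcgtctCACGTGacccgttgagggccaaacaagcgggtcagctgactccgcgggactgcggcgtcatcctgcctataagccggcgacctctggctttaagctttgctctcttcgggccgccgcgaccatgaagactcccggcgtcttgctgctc
Ctss: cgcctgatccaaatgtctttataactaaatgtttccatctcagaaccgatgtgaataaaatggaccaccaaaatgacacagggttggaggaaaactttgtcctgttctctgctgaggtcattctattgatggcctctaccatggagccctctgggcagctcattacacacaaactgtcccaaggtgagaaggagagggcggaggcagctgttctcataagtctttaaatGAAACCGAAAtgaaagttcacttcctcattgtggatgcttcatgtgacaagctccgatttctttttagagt

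Motifs were searched on both strands. CACGTG, which reads the same on both, was present in a window of 4 of the 7 members, Ctsa, Ctsd, Ctsl and Lgmn, and in 8.09% of the 27025 genes with RefSeq windows of the same length. By window it was in 4 of the members' 9 windows and in 7.15% of all 32851. Counting the first base of the gene as 1 and the base before it as -1, CACGTG began at -12 and 6 in Ctsa and at -245 and -98 in Ctsd. It began at -236 in Ctsl and at -49 in the second Lgmn window. The longer palindrome TCACGTGA, which contains CACGTG, was in 1 window each of Ctsa and Ctsd, and in 0.97% of all windows. The GAAA pair was in the window of 1 member, Ctss, starting at -21, and in 3.44% of all windows. These are letter matches in fixed windows, and no binding was measured.

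The deposited values are FPKM, fragments per kilobase of transcript and per number of mapped fragments, and hold no read counts, so absolute depth was unknown. Relative depth, estimated from the spacing of the lowest values, was 0.957 and 1 in the Cnot3 fl/fl libraries and 0.746 and 0.898 in the Cnot3 +/+ libraries. Cnot3 itself, measured over the whole gene, had 39.0 and 40.3 FPKM in Cnot3 fl/fl cells, against 41.6 and 39.3 FPKM in Cnot3 +/+ cells. The labels do not name the deleted exons, so this value does not check the deletion. Cnot3 +/+ replicate 1 stood apart in sex-linked transcripts, with Xist at 0.024 FPKM against 54.3 to 63.1 FPKM in the other 3 libraries. The Y-linked Eif2s3y had 29.301 FPKM in it, against 0 to 0.027 FPKM in the others. Ddx3y, also Y-linked, had 15.986 FPKM against 0 to 0.009 FPKM. By these transcripts Cnot3 +/+ replicate 1 came from a male mouse and the other 3 libraries from female mice. Sex was thus not balanced between the genotypes, and its part in their differences was not tested. Results are therefore also given without Cnot3 +/+ replicate 1 where leaving it out changes them.

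The gate held RNA of several cell types. All 12 listed pro-B cell markers were detected, and their summed level was 772.3 and 760.9 FPKM in Cnot3 fl/fl cells and 996.9 and 1392 FPKM in Cnot3 +/+ cells, with 0 markers passing the test upwards and 6 downwards. Markers of plasmacytoid dendritic cells, which also carry B220, were more abundant, at 9065 and 10671 FPKM in Cnot3 fl/fl cells and 11504 and 10984 FPKM in Cnot3 +/+ cells, led by Bst2, Irf8 and Ly6d. Of these 11 markers 0 passed upwards and 1 downwards. Dendritic cells and macrophages are rich in cathepsins, so these levels are given beside the protease results, and their part in those results was not tested. Markers of classical dendritic cells summed to 1611 and 2037 FPKM in Cnot3 fl/fl cells and 1515 and 1541 FPKM in Cnot3 +/+ cells, led by Cst3, Flt3 and Clec10a (2 of 9 tested passed upwards, 1 downwards). Markers of monocytes and macrophages summed to 1398 and 1700 FPKM in Cnot3 fl/fl cells and 1087 and 1310 FPKM in Cnot3 +/+ cells, led by Ly6c2, Cd68 and Ccr2 (1 of 7 upwards). T and NK cell markers, led by Cd4, Nkg7 and Klrd1, summed to 792.6 and 655.7 FPKM in Cnot3 fl/fl cells and 562.6 and 556.4 FPKM in Cnot3 +/+ cells (2 of 11 upwards). The last lists cover neutrophils and plasma cells. Neutrophil markers, led by S100a9, S100a8 and Ngp, summed to 224.9 and 149.7 FPKM in Cnot3 fl/fl cells and 159.0 and 209.9 FPKM in Cnot3 +/+ cells (1 of 8 upwards). Plasma cell markers, led by Xbp1, Mzb1 and Igj, summed to 349.4 and 497.0 FPKM in Cnot3 fl/fl cells and 443.6 and 993.3 FPKM in Cnot3 +/+ cells (1 of 7 downwards). Of the listed markers that the tables hold, 0 were at 0 in all 4 libraries. By the same test 6.22% of all tested genes passed upwards and 3.28% downwards.

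**Figure D1:**
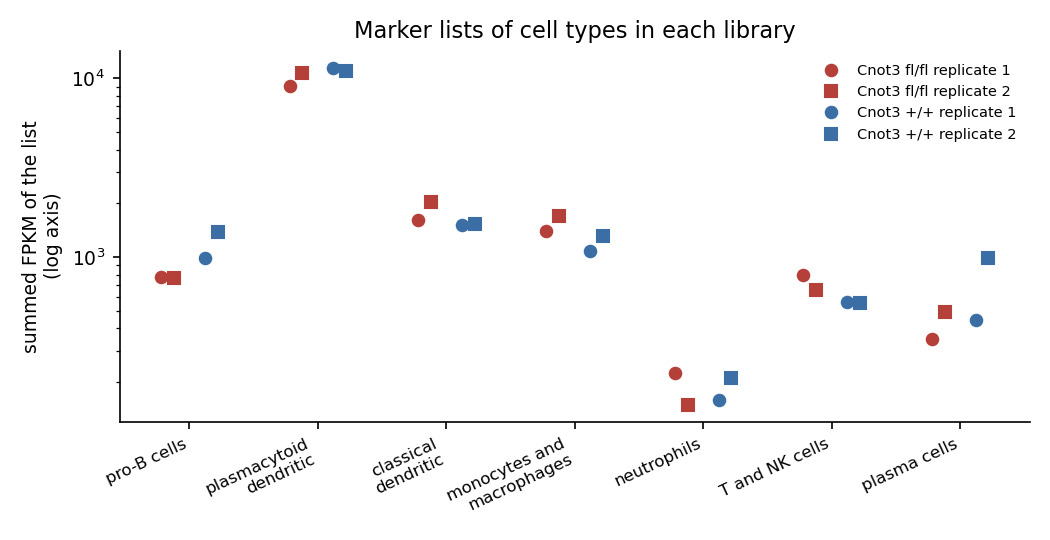
Summed FPKM of marker lists of 7 cell types in each library, on a log axis, with Cnot3 fl/fl libraries in red to the left of Cnot3 +/+ libraries in blue. Plasmacytoid dendritic cell markers had the highest sum in all 4 libraries, and the pro-B cell sum was lower in both Cnot3 fl/fl libraries than in both Cnot3 +/+ libraries.

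The 9 proteases were among the more abundant transcripts of these cells, and 1 of them differed between the genotypes by the test. Ctsc, the dipeptidyl peptidase that activates granule serine proteases, rose in Cnot3 fl/fl cells to 1.35 times its Cnot3 +/+ level. The other 8 did not pass. The difference was tested with limma on log2(FPKM + 1) across the 11017 genes that averaged 1 FPKM or more, with Benjamini-Hochberg adjustment and a threshold of 0.05 on the adjusted p. By this test 1 of 9 members was called higher in Cnot3 fl/fl cells, against 6.22% of all genes tested, and 0 of 9 were called lower, against 3.28% of all genes. At an unadjusted p under 0.05, 2 of 9 members, Ctsc and Ctsd, passed in either direction, against 33.8% of all genes. The submitters' comparison of the same libraries marked 0 of 9 members as different in the authors' deposited table, against 6.59% of 12154 genes tested there. In bulk RNA, fewer cells of a type and less RNA per cell cannot be told apart. The p-values combine the spread between 2 mice per genotype with a spread that limma estimates from genes of similar level. The estimate from other genes carried 2.69 degrees of freedom, against 2 from the mice.

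Both Cnot3 fl/fl libraries lay above both Cnot3 +/+ libraries in 3 members, Ctsa, Ctsc and Lgmn, a position that 32.7% of all tested genes had. They lay below in 3 members, Ctsb, Ctsd and Ctsl, as did 31.7% of all tested genes, and the genotypes overlapped in Ctsh, Ctss and Ctsz. The median log2 fold change of the 9 members was -0.055, with 4 positive and 5 negative, and that of all genes tested was -0.009. This median was 0.15 under quantile normalization and between -0.16 and 0.045 when 1 library was left out. The median size of the change was 0.23 on the log2 scale in the members and 0.22 in all genes tested. The shares of members without overlap were near those of all genes in each direction.

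**Figure D2:**
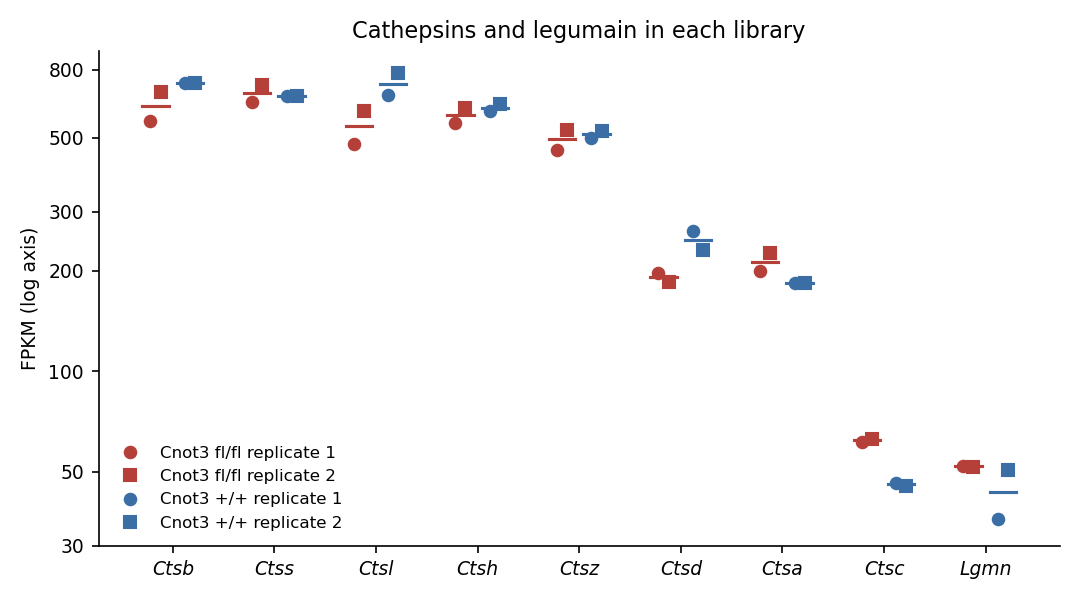
FPKM of the 9 proteases in each library, on a log axis, with Cnot3 fl/fl libraries in red to the left of Cnot3 +/+ libraries in blue. Ctss, Ctsb, Ctsl, Ctsh and Ctsz sit between 460.5 and 781.9 FPKM, Ctsa and Ctsd between 183.3 and 263.5 FPKM, and Ctsc and Lgmn between 36.0 and 62.6 FPKM.

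Cathepsin S, an endopeptidase that trims the invariant chain in B cells and dendritic cells, was the most abundant member in Cnot3 fl/fl cells. Ctss (mm9 chromosome 3, 95330707 to 95360325) had 641.4 and 722.0 FPKM in Cnot3 fl/fl cells, against 667.3 and 667.1 FPKM in Cnot3 +/+ cells. The Cnot3 +/+ values lay between those of the Cnot3 fl/fl libraries. Its log2 fold change was 0.03, with a 95% interval of -0.29 to 0.35 (limma, adjusted p = 0.89), and 0.21 under quantile normalization. Of all genes tested, 6.9% had a smaller change of the mean.

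Cathepsin L, an endopeptidase that processes the invariant chain in other antigen-presenting cells such as the thymic epithelium, had the lowest log2 fold change of the 9 with all 4 libraries. Ctsl (mm9 chromosome 13, 64464521 to 64471614) had 479.3 and 603.3 FPKM in Cnot3 fl/fl cells, against 671.1 and 781.9 FPKM in Cnot3 +/+ cells. Both Cnot3 fl/fl libraries were below both Cnot3 +/+ libraries, and the replicates within each genotype lay far apart. The mean was 541.3 ± 87.7 FPKM in Cnot3 fl/fl cells and 726.5 ± 78.3 FPKM in Cnot3 +/+ cells (SD, n = 2 each). The log2 fold change was -0.43 with a standard error of 0.17 and a 95% interval of -0.87 to 0.01, and it did not pass (limma, adjusted p = 0.16). It was -0.21 under quantile normalization and between -0.60 and -0.26 when 1 library was left out. Ctsd was lower than Ctsl under quantile normalization, and when either Cnot3 fl/fl replicate 1 or Cnot3 +/+ replicate 2 was left out.

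Cathepsin B, which cuts proteins internally and also removes dipeptides from the C terminus, was the most abundant member in Cnot3 +/+ cells. Ctsb (mm9 chromosome 14, 63741298 to 63796630, a locus the authors' table gives to 2 genes) had 562.9 and 685.8 FPKM in Cnot3 fl/fl cells, against 730.6 and 731.3 FPKM in Cnot3 +/+ cells. Both Cnot3 fl/fl values were lower, and they differed from each other by more than the distance of the nearer one from the Cnot3 +/+ values. The log2 fold change was -0.23, with a 95% interval of -0.61 to 0.14 (limma, adjusted p = 0.31). It was -0.047 under quantile normalization, -0.092 with Cnot3 fl/fl replicate 1 left out and -0.38 with Cnot3 fl/fl replicate 2 left out.

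Cathepsin H, mainly an aminopeptidase, and cathepsin Z, a carboxypeptidase, had overlapping libraries. Ctsh (mm9 chromosome 9, 89949104 to 89970933) had 552.6 and 614.6 FPKM in Cnot3 fl/fl cells, against 600.1 and 631.0 FPKM in Cnot3 +/+ cells. Its log2 fold change was -0.08, with a 95% interval of -0.39 to 0.23 (limma, adjusted p = 0.68), and 0.15 under quantile normalization. Neither direction of Ctsh is settled by these values. Ctsz (mm9 chromosome 2, 174241304 to 174264493, a locus given to 2 genes) had 460.5 and 529.5 FPKM in Cnot3 fl/fl cells, against 500.8 and 526.0 FPKM in Cnot3 +/+ cells. Its log2 fold change was -0.06, with a 95% interval of -0.37 to 0.26 (limma, adjusted p = 0.78), and 0.065 under quantile normalization. In both genes the means differed by less than the Cnot3 fl/fl replicates did.

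Cathepsin C is a dipeptidyl aminopeptidase that removes the activation dipeptide from granzymes, neutrophil elastase, cathepsin G and mast cell chymase. Ctsc (mm9 chromosome 7, 95426602 to 95459385) had 61.5 and 62.6 FPKM in Cnot3 fl/fl cells, against 46.3 and 45.3 FPKM in Cnot3 +/+ cells. Ctsc was higher in both Cnot3 fl/fl libraries, and the replicates of each genotype were close together. The mean was 62.0 ± 0.773 FPKM in Cnot3 fl/fl cells and 45.8 ± 0.678 FPKM in Cnot3 +/+ cells (SD, n = 2 each). The log2 fold change was 0.43 with a standard error of 0.07 and a 95% interval of 0.24 to 0.61 (limma, adjusted p = 0.041). In size this change exceeded those of 78.7% of tested genes and was close to that of Ctsl, whose standard error was larger. The adjusted p was 0.099 to 0.225 when any 1 library was left out and 0.064 with no filter on low values, while the log2 fold change stayed between 0.40 and 0.44. In the authors' deposited table Ctsc had a q-value of 0.197. Summed markers of monocytes and macrophages were also higher in both Cnot3 fl/fl libraries. Of the 7 tested markers 5 were higher in both, against 32.7% of all tested genes. The T and NK cell sum was higher too, but without Cd8a, at 129.4 and 134.7 FPKM in Cnot3 fl/fl cells and 15.7 and 25.7 FPKM in Cnot3 +/+ cells, it was 663.2 and 520.9 FPKM in Cnot3 fl/fl cells and 546.8 and 530.7 FPKM in Cnot3 +/+ cells, which overlap. Their part in the Ctsc result was not tested.

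Cathepsin D, the aspartic endopeptidase that carries out bulk protein degradation in lysosomes, was lower in both Cnot3 fl/fl libraries without passing the adjusted threshold. Ctsd (mm9 chromosome 7, 149561820 to 149573775) had 196.9 and 184.8 FPKM in Cnot3 fl/fl cells, against 263.5 and 231.1 FPKM in Cnot3 +/+ cells. The genotypes did not overlap, and the gap between them exceeded the spread within either. The mean was 190.9 ± 8.61 FPKM in Cnot3 fl/fl cells and 247.3 ± 22.9 FPKM in Cnot3 +/+ cells (SD, n = 2 each). The log2 fold change was -0.37 with a standard error of 0.11 and a 95% interval of -0.65 to -0.09 (limma, adjusted p = 0.089). It was -0.275 without Cnot3 +/+ replicate 1 and -0.464 without Cnot3 +/+ replicate 2.

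Cathepsin A, a serine carboxypeptidase, also protects the lysosomal sialidase and beta-galactosidase from breakdown. Ctsa (mm9 chromosome 2, 164656229 to 164683208, a locus given to 3 genes) had 199.9 and 225.5 FPKM in Cnot3 fl/fl cells, against 184.3 and 183.3 FPKM in Cnot3 +/+ cells. The genotypes did not overlap, and the margin between them was smaller than the distance between the Cnot3 fl/fl libraries. Its log2 fold change was 0.21, with a 95% interval of -0.05 to 0.46 (limma, adjusted p = 0.21), and it was 0.12 without Cnot3 fl/fl replicate 2. The promoter windows of Ctsa and Ctsd both hold TCACGTGA, and their log2 fold changes have opposite signs, neither past the threshold.

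Legumain activates several cathepsins by cutting them into their mature chains and also cuts antigens. Lgmn (mm9 chromosome 12, 103632307 to 103677907) had 52.1 and 51.7 FPKM in Cnot3 fl/fl cells, against 36.0 and 50.6 FPKM in Cnot3 +/+ cells. Cnot3 +/+ replicate 2 was close to the Cnot3 fl/fl libraries, and Cnot3 +/+ replicate 1 was lower than all 3. For legumain the log2 fold change was 0.27 ± 0.17 (standard error), with a 95% interval of -0.17 to 0.72 (limma, adjusted p = 0.32). It was 0.035 without Cnot3 +/+ replicate 1 and 0.52 without Cnot3 +/+ replicate 2, so the size of this difference rests on 1 library.

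**Figure D3:**
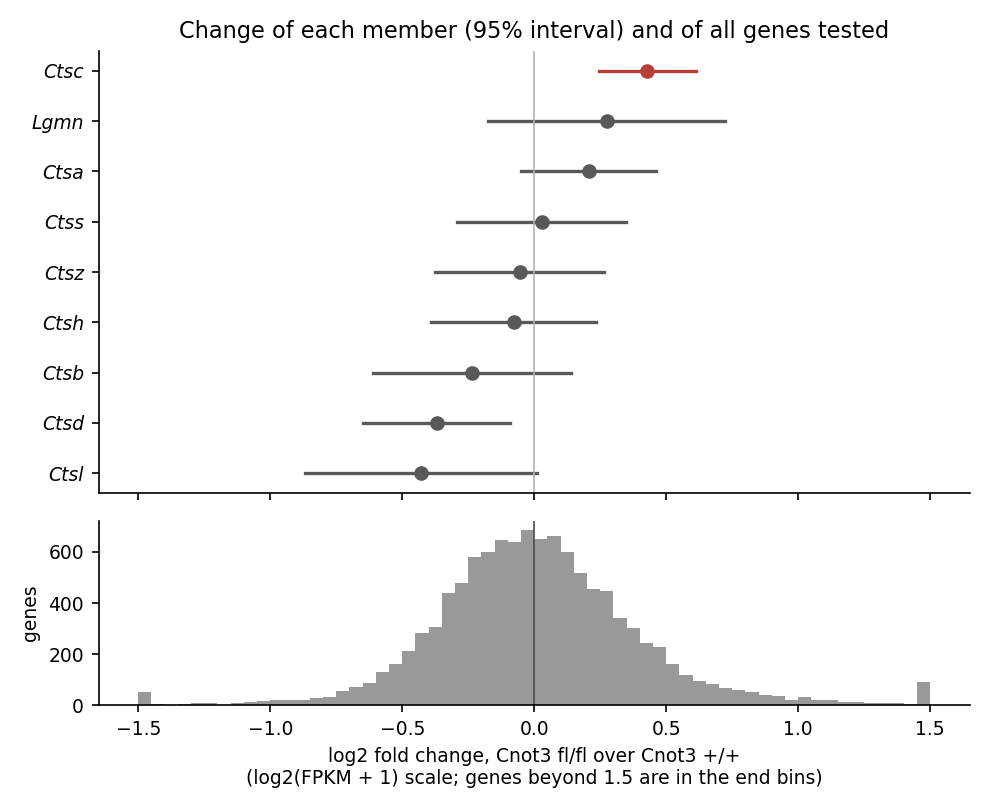
Log2 fold change of each protease (Cnot3 fl/fl over Cnot3 +/+, on the log2(FPKM + 1) scale), with 95% intervals from limma, 2 libraries per genotype, above a histogram of the same change in all 11017 genes tested. The interval of Ctsc, from 0.24 to 0.61, and that of Ctsd, from -0.65 to -0.09, do not include 0, and only Ctsc passed after adjustment; Ctsh and Ctsz turned positive under quantile normalization.

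FPKM is scaled to transcript length, so levels can be ordered between genes. In Cnot3 fl/fl cells the order of mean levels was Ctss at 681.7, Ctsb at 624.3, Ctsh at 583.6, Ctsl at 541.3, Ctsz at 495.0, Ctsa at 212.7, Ctsd at 190.9, Ctsc at 62.0 and Lgmn at 51.9 FPKM. The libraries of each neighbouring pair among the first 5 overlapped, and those of each later pair did not. In Cnot3 +/+ cells the order was Ctsb at 731.0, Ctsl at 726.5, Ctss at 667.2, Ctsh at 615.5, Ctsz at 513.4, Ctsd at 247.3, Ctsa at 183.8, Ctsc at 45.8 and Lgmn at 43.3 FPKM. There only the neighbours Ctsb and Ctsl, and Ctsc and Lgmn, overlapped. Ctsl stood at place 4 in Cnot3 fl/fl cells and at place 2 in Cnot3 +/+ cells, and Ctsa and Ctsd stood in opposite order. Among all genes tested, the 5 most abundant members ranked between 52 and 80 by mean level, Ctsd 246, Ctsa 287, Ctsc 1637 and Lgmn 1912.

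The 9 transcripts summed to 3207 and 3680 FPKM in Cnot3 fl/fl cells and to 3700 and 3848 FPKM in Cnot3 +/+ cells. Both Cnot3 fl/fl sums were lower, the second of them by little. The means were 3443 ± 334.2 FPKM in Cnot3 fl/fl cells and 3774 ± 104.4 FPKM in Cnot3 +/+ cells (SD, n = 2 each), a difference of -330.4 FPKM as deposited, and of 84.6 FPKM in the other direction under quantile normalization, an alternative chosen after seeing the data. An exact two-sided permutation test gave p = 0.33, the smallest that 2 against 2 libraries allow. The members made up 0.792% and 0.840% of all FPKM in Cnot3 fl/fl cells and 0.867% and 0.876% in Cnot3 +/+ cells.

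Ratios within a library do not change when all its values are multiplied by the same factor. Quantile normalization is not such a scaling and can change them. The pairs given here were chosen after the members' values were seen, so they carry no test. Cathepsin L over cathepsin S was 0.747 and 0.836 in Cnot3 fl/fl cells and 1.01 and 1.17 in Cnot3 +/+ cells. Ctsl was thus below Ctss in both Cnot3 fl/fl libraries and above it in both Cnot3 +/+ libraries. Ctsb over Ctss was 0.878 and 0.950 in Cnot3 fl/fl cells and 1.09 and 1.10 in Cnot3 +/+ cells. Ctsd over Ctsa was 0.985 and 0.820 in Cnot3 fl/fl cells and 1.43 and 1.26 in Cnot3 +/+ cells, again on opposite sides of equality. Against Ctsc, the called member, Ctsl was 7.80 and 9.64 times as high in Cnot3 fl/fl cells and 14.5 and 17.2 times in Cnot3 +/+ cells. Ctsd over Ctsc was 3.20 and 2.95 in Cnot3 fl/fl cells and 5.69 and 5.10 in Cnot3 +/+ cells. The genotypes' libraries did not overlap in any of these 5 ratios, which the choice of pairs after seeing the values builds in.

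**Figure D4:**
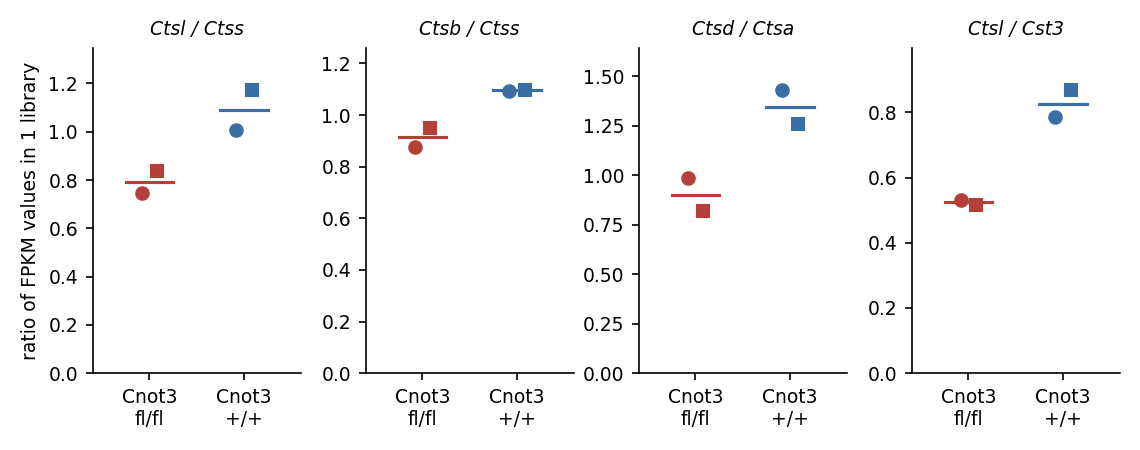
Ratios of FPKM between pairs of genes within each library, with Cnot3 fl/fl libraries in red to the left of Cnot3 +/+ libraries in blue. Ctsl over Ctss lies between 0.747 and 0.836 in Cnot3 fl/fl cells and between 1.01 and 1.17 in Cnot3 +/+ cells, and Ctsd over Ctsa lies below 1 in Cnot3 fl/fl cells and above 1 in Cnot3 +/+ cells.

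The genes most like the members with the highest and lowest log2 fold change over all 4 libraries were sought among the 6762 genes that averaged 10 FPKM or more. Likeness was the root mean square difference of log2(FPKM + 1), centred on each gene's mean over the 4 libraries. For Ctsc the 3 closest were Spryd3 (0.004), Bin1 (0.0077) and Parp8 (0.01). For Ctsl they were Deb1 (0.0253), Mien1 (0.0323) and Hnrnpa0 (0.0327). Over 4 libraries this likeness is a description only.

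The tables hold 23 genes whose symbol starts with Cts, of which 9 were listed at 0 in all 4 libraries: Cts3, Cts6, Cts7, Cts8, Ctsj, Ctsll3, Ctsm, Ctsq and Ctsr. These were named after their values were seen, and several belong to the placental cathepsins of rodents. The other cathepsins and lysosomal peptidases outside the 9 members had 11 tested genes, with 1 higher and 0 lower in Cnot3 fl/fl cells. The shares of all tested genes, for this list and the later ones, were 6.22% higher and 3.28% lower. The list had a median log2 fold change of 0.13, beside -0.009 for all genes. In this list and the lysosomal lists that follow, 0 of the genes called with 4 libraries passed once any 1 library was left out. The called gene was Ctsg, which lies below 1 FPKM in both Cnot3 +/+ libraries and was tested only through its Cnot3 fl/fl values. Cathepsin G is a neutrophil and mast cell serine protease and had 5.004 and 3.06 FPKM in Cnot3 fl/fl cells, against 0.881 and 0.988 FPKM in Cnot3 +/+ cells (log2 fold change 1.35, limma, adjusted p = 0.042). Ctsg was no longer called with a minimum mean of 5 FPKM, where it is not tested, or with a pseudocount of 5.

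Cathepsin E, an aspartic protease of endosomes, was named after its values were seen, because its Cnot3 fl/fl libraries lay far apart. Ctse had 38.8 and 251.9 FPKM in Cnot3 fl/fl cells, against 386.4 and 419.0 FPKM in Cnot3 +/+ cells. Ctse was lower in both of the Cnot3 fl/fl libraries, replicate 1 by much more than replicate 2. The log2 fold change was -2.01 with a standard error of 0.88 and did not pass (limma, adjusted p = 0.19), whereas the authors' deposited table marked it as different. Without Cnot3 fl/fl replicate 2 it was -3.34 and passed (limma, adjusted p = 0.036).

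Of the inhibitors, 3 of 10 cystatins and stefins in the tables were tested, and 0 were called in either direction, with a median log2 fold change of 0.22. Cystatin C, the secreted inhibitor Cst3, had 900.0 and 1167 FPKM in Cnot3 fl/fl cells, against 855.6 and 900.9 FPKM in Cnot3 +/+ cells (log2 fold change 0.22, limma, adjusted p = 0.42). The level of Cst3 exceeded that of every protease member in every library. Cst3 is also a marker of classical dendritic cells, whose summed markers are given above. Ctsl over Cst3 was 0.533 and 0.517 in Cnot3 fl/fl cells and 0.784 and 0.868 in Cnot3 +/+ cells. Cystatin F, Cst7, which reaches the lysosome and acts on cathepsin C, had 0.24 as log2 fold change (limma, adjusted p = 0.55), and stefin B, Cstb, had 0.05 (limma, adjusted p = 0.71). Neither differed beyond the spread between replicates.

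Of 9 listed proteases that cathepsin C activates 6 were tested, with a median log2 fold change of 0.95. In Cnot3 fl/fl cells 3 rose and 0 fell, against 6.22% and 3.28% of all tested genes. Those that rose were Ctsg, counted in the list above as well, neutrophil elastase Elane (log2 fold change 1.04, limma, adjusted p = 0.042) and mast cell chymase Cma1 (1.06, limma, adjusted p = 0.042). Elane had 5.55 and 4.58 FPKM in Cnot3 fl/fl cells, against 2.30 and 1.61 FPKM in Cnot3 +/+ cells. The levels of the 3 genes that rose are low, and Ctsg was tested only through its Cnot3 fl/fl values. The list's median was 1.24 with a pseudocount of 0.1 and 0.52 with 5. With a minimum mean of 5 FPKM, under which these 3 genes were not tested, 0 were called higher and the median was 0.33. Granzyme A, Gzma, had 115.5 and 117.3 FPKM in Cnot3 fl/fl cells, against 173.1 and 99.8 FPKM in Cnot3 +/+ cells, where the replicates straddled the Cnot3 fl/fl values. The tryptase genes Tpsab1 and Tpsb2 were listed at 0 in all 4 libraries. Elane and Prtn3 are on the neutrophil marker list too. The sums of that list overlapped between the genotypes and were led by S100a8, S100a9 and Ngp. Of its 8 tested markers 3, Elane, Mpo and Prtn3, were higher in both Cnot3 fl/fl libraries, against 32.7% of all tested genes. Camp was lower in both, a position that 31.7% of all tested genes had. Mpo, myeloperoxidase, had 7.68 and 4.53 FPKM in Cnot3 fl/fl cells, against 2.11 and 2.64 FPKM in Cnot3 +/+ cells (limma, adjusted p = 0.068). The part of such cells in these results was not tested.

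MHC class II genes, whose products receive the peptides that cathepsins make, had 11 tested genes and a median log2 fold change of 0.54. In Cnot3 fl/fl cells 6 were called higher and 0 lower, against 6.22% and 3.28% of all tested genes. The peptide exchange genes H2-DMb2, H2-Oa and H2-Ob were among the 6. H2-DMb2, a chain of the exchange factor H2-DM, had 70.9 and 83.0 FPKM in Cnot3 fl/fl cells, against 29.997 and 28.1 FPKM in Cnot3 +/+ cells (log2 fold change 1.37, limma, adjusted p = 0.020). H2-Oa and H2-Ob, the chains of its inhibitor H2-O, had log2 fold changes of 0.67 and 0.51 (limma, adjusted p = 0.040 for both). The others that passed were H2-Ab1, H2-Eb1 and the transactivator Ciita. The invariant chain Cd74, a substrate of cathepsin S, had 3785 and 4829 FPKM in Cnot3 fl/fl cells, against 3206 and 3787 FPKM in Cnot3 +/+ cells, and did not pass (log2 fold change 0.30, limma, adjusted p = 0.44). H2-Ab1 over Ctss was 3.09 and 3.42 in Cnot3 fl/fl cells and 1.58 and 1.76 in Cnot3 +/+ cells. Markers of classical dendritic cells, which are rich in class II, had a median log2 fold change of 0.64. Of 9 tested markers 6 were higher in both Cnot3 fl/fl libraries, against 32.7% of all tested genes. Without Cst3, which makes up most of their sum, these markers summed to 710.7 and 869.8 FPKM in Cnot3 fl/fl cells and 659.4 and 640.3 FPKM in Cnot3 +/+ cells. Zbtb46 and Clec9a passed upwards and Clec10a downwards. Zbtb46 lay below 1 FPKM in both Cnot3 +/+ libraries, at 0.71 and 0.60 FPKM. Like Ctsg, it was tested only through its Cnot3 fl/fl values, 3.82 and 4.19 FPKM. The part of classical dendritic cells in the class II result was not tested.

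Toll-like receptors of the endosome are cut by cathepsins and legumain before they signal. Of 6 listed genes 3 were tested, Tlr7, Tlr9 and Unc93b1, which is not itself a receptor (median log2 fold change 0.52). In Cnot3 fl/fl cells 1 was called higher and 0 lower, against 6.22% and 3.28% of all tested genes. Unc93b1 had 625.7 and 746.3 FPKM in Cnot3 fl/fl cells, against 839.7 and 840.6 FPKM in Cnot3 +/+ cells. Its log2 fold change was -0.30 and did not pass (limma, adjusted p = 0.21). Tlr7 had 82.9 and 76.3 FPKM in Cnot3 fl/fl cells, against 55.8 and 48.4 FPKM in Cnot3 +/+ cells (log2 fold change 0.60, limma, adjusted p = 0.042). The genotypes did not overlap in Tlr7.

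The remaining lysosomal hydrolases, which break down sugars, lipids and nucleic acids, had 31 tested genes. In Cnot3 fl/fl cells 4 were called higher and 1 lower, against 6.22% and 3.28% of all tested genes. Log2 fold changes were positive in 24 and negative in 7 (median 0.22), against 5400 and 5617 of all genes tested. Acp5, tartrate-resistant acid phosphatase, had 54.7 and 63.7 FPKM in Cnot3 fl/fl cells, against 22.4 and 24.2 FPKM in Cnot3 +/+ cells (log2 fold change 1.31, limma, adjusted p = 0.022). Dnase2a, the lysosomal DNase, had 33.5 and 41.3 FPKM in Cnot3 fl/fl cells, against 18.9 and 19.9 FPKM in Cnot3 +/+ cells (log2 fold change 0.90, limma, adjusted p = 0.036). The phospholipase Pla2g15 (0.66, limma, adjusted p = 0.036) and the glucosaminidase Naglu (0.56, limma, adjusted p = 0.040) also rose. Ppt2, a lysosomal thioesterase, had 15.5 and 14.0 FPKM in Cnot3 fl/fl cells, against 28.4 and 29.0 FPKM in Cnot3 +/+ cells (log2 fold change -0.92, limma, adjusted p = 0.024). Ppt2 was the gene that fell.

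Among activators and membrane proteins of the lysosome, 0 of 16 tested genes passed upwards and 1 downwards in Cnot3 fl/fl cells (median log2 fold change -0.049). The membrane glycoprotein Lamp1 had 119.0 and 118.4 FPKM in Cnot3 fl/fl cells, against 152.9 and 158.4 FPKM in Cnot3 +/+ cells (log2 fold change -0.39, limma, adjusted p = 0.049). Of 16 tested subunits of the V-ATPase, the proton pump that makes the lysosome acid, 1 was higher and 0 lower, and the median was -0.059. That subunit was Atp6v1b2 (log2 fold change 0.51, limma, adjusted p = 0.037). Of 9 tested sorting and transcription genes, 1 was higher and 2 lower (median -0.16). Sort1, sortilin, a sorting receptor for lysosomal proteins, had 25.3 and 24.2 FPKM in Cnot3 fl/fl cells, against 50.7 and 42.4 FPKM in Cnot3 +/+ cells (log2 fold change -0.88, limma, adjusted p = 0.035). Gnptg, a subunit of the enzyme that starts the mannose 6-phosphate tag, fell (log2 fold change -0.40, limma, adjusted p = 0.046), and the transcription factor Tfe3 rose (0.41, limma, adjusted p = 0.0495). Its relative Tfeb had 0.04 (limma, adjusted p = 0.81). Both genes of the sorting pathway that passed were lower, and Tfe3 was higher. Over all genes tested, 6.22% were called higher and 3.28% lower.

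**Figure D5:**
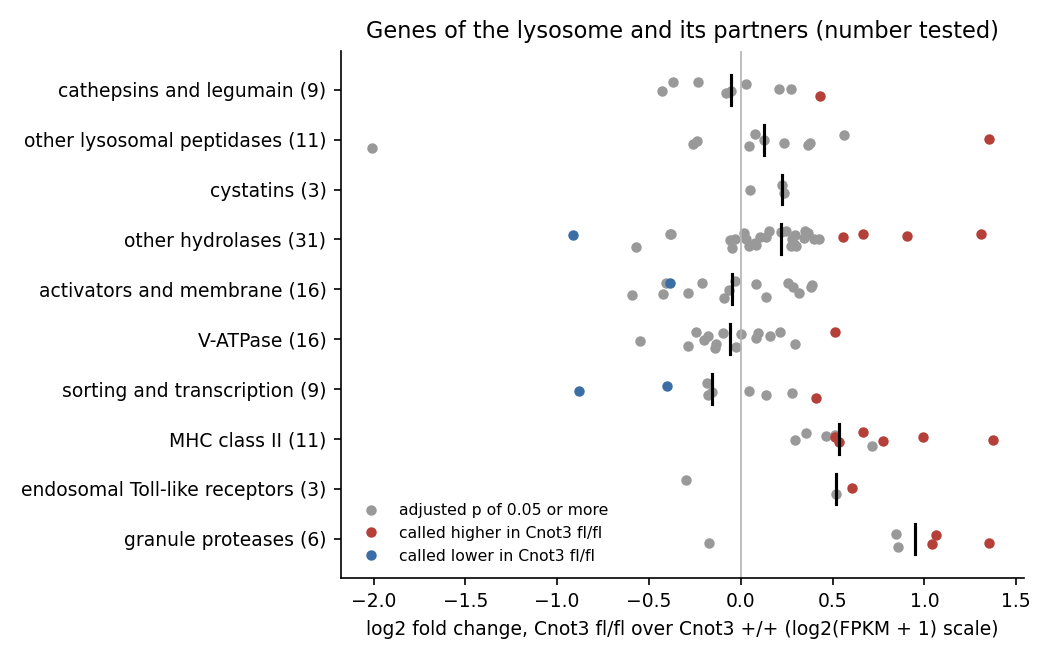
Log2 fold change (Cnot3 fl/fl over Cnot3 +/+) of every tested gene in the 9 lysosomal lists and in the 9 proteases, with the genes that passed limma at an adjusted p of 0.05 marked and the list median as a line. MHC class II genes have a median of 0.54 with 6 of 11 passing, the 9 proteases a median of -0.055 with 1 passing; the median of the proteases turned positive under quantile normalization.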

How the data were processed

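The 4 libraries came from sorted B220+CD43+ cells of individual mice, 2 per genotype. Per the labels' protocols, libraries were made from total RNA with a stranded mRNA kit. The submitters' processing notes list build mm9, Cuffnorm 2.2.1, Cufflinks 2.2.1, Bowtie2 2.2.3.0, TopHat2 2.0.13 and bcl2fastq 1.8.4. The annotation, the scaling of libraries and strand use were not given in the sources used here. FPKM values were deposited by the authors for each gene and library, per the file headers, together with a comparison table that holds each gene's p-value and q-value. Its loci can merge neighbouring genes, and reads of overlapping or near-identical genes may be split between them.

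From these values, log2(FPKM + 1) of the 11017 genes averaging 1 FPKM or more was fitted with limma 3.58.1 in R 4.3.3 (eBayes with trend, genotype as the only term, two-sided, Benjamini-Hochberg adjustment over all genes). This scale understates the change of low genes. The code was tested on simulated data. Exact permutation tests went through every split of the 4 libraries into 2 and 2. Relative depth was the ratio of values that held, within 0.5%, for the most genes under 0.3 FPKM (8.68% to 12.1% of them). No counting interval can be given.

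The members and gene lists were chosen with earlier results of these data known. Named genes were all 9 members, list genes past the threshold or otherwise with the smallest p, the 3 most abundant markers of each cell type and the closest genes by likeness; not every gene so taken is named. Ctse, Tfeb, Cd74, Gzma, Tlr9, Unc93b1 and the stefin A genes were added after their values were seen. So were the markers Cd8a, Zbtb46, Clec9a, Elane, Mpo, Prtn3, Csf3r, Camp, Ltf and Fcnb. The marker sums without Cd8a or Cst3 and the genes listed at 0 were likewise added after their values were seen. Alternatives were other pseudocounts (0.1 and 5), filters, scalings and eBayes settings, a replicate block, and leaving out each library.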

Additional observations from a re-analysis of the deposited data

How the results depend on the processing

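Directions of the 9 members held under every alternative except for Ctsh (0.15) and Ctsz (0.065) under quantile normalization, and, with 1 library left out, for Ctss (-0.057 to 0.11) and Ctsz (-0.16 to 0.045). Among the inhibitors the same held for Cst7 (-0.13 to 0.60) and Cstb (-0.015 to 0.12). The summed FPKM differed by 84.6 under quantile normalization, an alternative chosen after seeing the data, and the members' median was then 0.15. Ctsc passed in 6 of 13 alternatives, with adjusted p-values of 0.032 to 0.225, and was lost (0 members higher) with no filter, with eBayes without the trend, with the replicate block and with any library left out.

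Without the trend, 242 genes were higher and 69 lower, with 0 members, 0 granule proteases, 0 Toll-like receptors, 0 other peptidases and 0 V-ATPase subunits higher, 1 hydrolase and 1 MHC class II gene higher, 0 sorting genes higher and 1 lower, and 0 activators lower. With no filter, 4 genes were higher and 1 lower, and 0 members and 0 genes of every lysosomal list were called. With a minimum mean of 5 FPKM, 0 granule proteases (median 0.33) and 0 other peptidases were higher. The granule protease median was 1.24 with a pseudocount of 0.1 and 0.52 with 5. With a pseudocount of 5 the hydrolase median was 0.15, the sorting median -0.093, and 0 sorting genes and 0 other peptidases were higher. Quantile normalization gave 10 MHC class II genes, 2 other peptidases and 0 Toll-like receptors higher, and 2 activators and 2 hydrolases lower. Rescaling to equal median ratios gave 2 activators and 2 hydrolases lower, robust eBayes 3 and 2.

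Leaving out each library in turn gave 2 to 18 genes higher and 0 to 13 lower, with 0 members and 0 list genes called, apart from 0 to 1 other peptidases lower (Ctse). A lone library is then assumed to vary like the other genotype. The medians ranged from 0.83 to 1.16 for granule proteases, 0.036 to 0.19 for cystatins, 0.35 to 0.69 for Toll-like receptors, 0.11 to 0.27 for other peptidases, 0.14 to 0.25 for hydrolases, -0.15 to -0.071 for sorting genes, 0.51 to 0.63 for MHC class II, -0.099 to 0.001 for activators, -0.12 to 0.043 for V-ATPase and -0.16 to 0.045 for the members.

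With the replicate number as a block, 456 genes were higher, with 0 members higher (Ctsc, limma, adjusted p = 0.055), 0 activators lower, 0 sorting genes higher and 1 lower, and 3 hydrolases higher (Naglu, limma, adjusted p = 0.051, was lost). The deviations of same-numbered libraries correlated at 0.144 over genes in 2 pairs, and nothing in the labels pairs the mice, so the numbers are not taken as pairing. The causes of these changes were not tested. With 2 libraries per genotype and no read counts, the intervals of the members span changes in both directions for 7 of 9.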

Other observations

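The stefin A genes, inhibitors of cysteine cathepsins found in neutrophils and other myeloid cells, lay under the filter on low values and were not tested. They are named here after their values were seen. Summed over Stfa1, Stfa2, Stfa2l1, Stfa3 and BC100530, they had 7.11 and 5.24 FPKM in Cnot3 fl/fl cells and were listed at 0 in both Cnot3 +/+ libraries. The sequences of the 5 genes were not compared, and how any shared reads were split between them is not known. The neutrophil genes S100a8 (60.5 and 38.9 FPKM in Cnot3 fl/fl cells, 49.2 and 50.5 FPKM in Cnot3 +/+ cells) and S100a9 (100.9 and 68.7 FPKM in Cnot3 fl/fl cells, 60.8 and 105.4 FPKM in Cnot3 +/+ cells) overlapped between the genotypes. Other genes of the neutrophil list went both ways. Elane, Mpo, Prtn3 and Csf3r were higher in both Cnot3 fl/fl libraries, with ratios of means of 2.59, 2.57, 2.17 and 2.42. Camp was lower in both, with a ratio of 0.65. Ltf (0.80), Ngp (0.88) and Fcnb (1.68) overlapped between the genotypes. The 8 tested genes of the list had 4 positive and 4 negative log2 fold changes, with a median of 0.009. The authors' deposited table marked each of the 5 stefin A genes as different. The part of myeloid cells in these values was not tested.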
